A study of Mus musculus with 2 samples.

Results

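The genes of the cytosolic ribosomal proteins were examined for the histone mark H3K4me1 in mouse embryonic stem cells. Members were the protein-coding genes of the mm10 genome whose symbols begin with Rpl or Rps followed by a number, together with Rpsa, Rplp0, Rplp1 and Rplp2, and without the Rps6k kinases. This rule found 85 genes among the 21535 protein-coding genes that could be placed with a strand: 43 of the large subunit, 31 of the small subunit, 3 of the stalk and 8 related copies whose symbols end in l or in l and a number. The rule uses symbols and no measured value, but it was chosen with earlier results of these data known. The cells were of the line E14TG2a.4, an embryonic stem cell line of strain 129/Ola derived from a male embryo. Chromatin immunoprecipitation followed by sequencing with an antibody to H3K4me1 was done on 2 biological replicates, which form the only group. There was no treatment and no second cell type, and a control library is not analysed here. All values therefore describe this line in culture, the SD covers only these 2 libraries, and no test between groups was possible.

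H3K4me1 is a single methyl group on lysine 4 of histone H3, found at enhancers and in the chromatin that flanks active promoters, where the start site itself carries the trimethylated form. Ribosomal protein genes are short and are transcribed strongly in nearly all growing cells, and embryonic stem cells need many ribosomes to divide quickly. Their messenger RNAs begin with a run of C and T, the terminal oligopyrimidine or TOP motif, through which their translation is tuned to growth signals.

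The promoters that the results turn on are shown first, so that the start sites used below can be seen. They belong to members with the highest coverage, to members without a peak at the promoter, and to members whose start site lay inside a peak. Each sequence runs 5′ to 3′ from 100 bases before the annotated start site to base 20 of the transcript. Capitals mark the longest unbroken run of C and T that lies within 20 bases of the start site on either side. The sequences are those of RefSeq for GRCm38.p6, and Rpl29 and Rpl17, which were chosen by the same rule, are named only. The first 5 are among the members with the highest coverage, the next pair had no promoter peak, and the last pair had the start site in a peak.
Rplp2: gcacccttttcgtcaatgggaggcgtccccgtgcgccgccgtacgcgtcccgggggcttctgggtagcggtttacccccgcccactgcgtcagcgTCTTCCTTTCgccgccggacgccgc
Rpl18: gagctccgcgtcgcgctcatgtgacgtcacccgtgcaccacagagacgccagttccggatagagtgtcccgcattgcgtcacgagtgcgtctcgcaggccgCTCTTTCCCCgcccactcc
Rps15: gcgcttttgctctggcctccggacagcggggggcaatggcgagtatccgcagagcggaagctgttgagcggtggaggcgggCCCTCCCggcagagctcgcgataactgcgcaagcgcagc
Rplp0: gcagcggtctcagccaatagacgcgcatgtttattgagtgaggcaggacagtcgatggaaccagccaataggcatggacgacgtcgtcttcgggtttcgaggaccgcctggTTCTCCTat
Rpl32l: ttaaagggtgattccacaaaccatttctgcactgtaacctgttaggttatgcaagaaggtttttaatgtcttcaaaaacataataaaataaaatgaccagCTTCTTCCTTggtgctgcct
Rpl39l: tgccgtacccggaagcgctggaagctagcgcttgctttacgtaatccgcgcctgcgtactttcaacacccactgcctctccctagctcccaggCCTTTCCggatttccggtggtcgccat
Rpl10l: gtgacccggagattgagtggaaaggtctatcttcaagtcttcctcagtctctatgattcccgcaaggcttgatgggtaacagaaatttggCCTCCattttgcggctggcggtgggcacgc
Rpl22: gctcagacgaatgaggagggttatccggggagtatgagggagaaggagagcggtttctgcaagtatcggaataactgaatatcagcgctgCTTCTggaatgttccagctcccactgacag
Rpl3l: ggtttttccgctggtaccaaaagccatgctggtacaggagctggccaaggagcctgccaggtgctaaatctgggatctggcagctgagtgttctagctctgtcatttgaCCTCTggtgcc

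On GRCm38.p6 these windows are chr7:141447551-141447670 on the plus strand for Rplp2, chr7:45717971-45718090 on the plus strand for Rpl18, chr10:80292331-80292450 on the plus strand for Rps15 and chr5:115559367-115559486 on the plus strand for Rplp0. Rpl32l lies on the plus strand at chr10:20208339-20208458, inside the gene Map7, and Rpl39l on the plus strand at chr16:10170128-10170247. Rpl10l lies on the minus strand at chr12:66284382-66284501, Rpl22 on the plus strand at chr4:152324336-152324455 and Rpl3l on the plus strand at chr17:24727726-24727845.

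RefSeq promoters of 300 bases were at hand for 65 members. A run of at least 8 C and T within 20 bases of the start site was present in 29 of them, 44.6%, against 15.4% of all 17492 promoters of the table. The longest was 21 bases, at Rpl7a, followed by 20 bases at Rpl27a. Mitochondrial ribosomal protein genes, whose products serve the separate ribosome of the mitochondrion, had such a run in 17.4% of 69 promoters. The base at the annotated start was C or T in 30 members, 46.2%, against 23.1% of all promoters. An unbroken run of C and T from that base reached 16 bases at Rpl27a, and its median over members was 0 because most annotated starts sat on A or G. The letters CGGAAG, searched on both strands over the 300 bases as CGGAAG or CTTCCG, which are reverse complements of one another, occurred in 43 members, 66.2%, against 21.5% of all promoters. The same letters occurred in 55.1% of mitochondrial ribosomal and 52.4% of proteasome subunit promoters, so a high share was not particular to the members. TATAA, read in the direction of transcription, occurred in the 50 bases before the start of 5 members, 7.69% against 5.98% of all promoters. These members were Rpl22l1, Rps18, Rps26, Rps27 and Rps9. Members had a median GC content of 57.0%, close to the 56.3% of all promoters, and a median observed to expected CpG ratio of 0.870 against 0.577. The median CpG ratio was 0.818 over mitochondrial ribosomal and 0.749 over proteasome subunit promoters. Rpl3l had the lowest CpG ratio of the members, 0.0892, and Rpl32l the lowest GC content, 34.7%. These matches describe letters only, and no binding was measured.

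Peaks lay in a wide stretch around most ribosomal protein genes, but stayed away from the start site and from the first kilobase of the transcript. Coverage is the percentage of bases within a stated distance of the start site that fall in a deposited peak. Within 20 kb on either side, the median over members was 34.4% in replicate 1 and 34.2% in replicate 2. The median of the members' means was 34.3% (SD over replicates 0.159, n = 2), against 13.8% (SD 0.240) over all protein-coding genes. The quartiles of the members were 19.2% and 50.9%, and the whole range ran from 0% at Rpl39l to 77.4% at Rplp2. Of the 85 members, 70 lay above the all-gene median, where 50% of all genes do. All genes include many with no peak near the start, and the median over the 15737 genes with a promoter peak was 22.6%. Mitochondrial ribosomal protein genes had a median of 30.5%, and proteasome subunit genes one of 25.7%.

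A replicated peak, meaning one in the authors' list of peaks kept across replicates, lay within 2 kb of the start site of 82 members, against 73.1% of all genes. Among these, 63 members had such a peak on each side with the start base itself free, a class that held 47.3% of all genes. Mitochondrial ribosomal protein genes had a peak within 2 kb in 100% and were flanked in 88.5%, proteasome subunit genes in 98% and 76%. Neither trait was thus particular to the members. The order of members and all genes in flanking held for the 2 kb limit and not for 1 kb. Within 1 kb, 6 members were flanked, 7.06%, against 37.6% of all genes. The start base lay in a replicated peak at 3 members, against 16.3% of all genes. This share was 1.28% for mitochondrial ribosomal protein genes and 8% for proteasome subunit genes. By library, the start base of 4 members lay in a peak in replicate 1 and that of 2 members in replicate 2. Of the 1145 replicated peaks within 20 kb of a member, 1069, or 93.4%, were overlapped by at least 1 bp of a peak in each replicate, near the 91.4% of all replicated peaks. With a reciprocal overlap of at least 50%, these shares were 67.9% and 63.6%. The list holds peaks kept across replicates, so that a high share follows from how it was made.

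**Figure D1:**
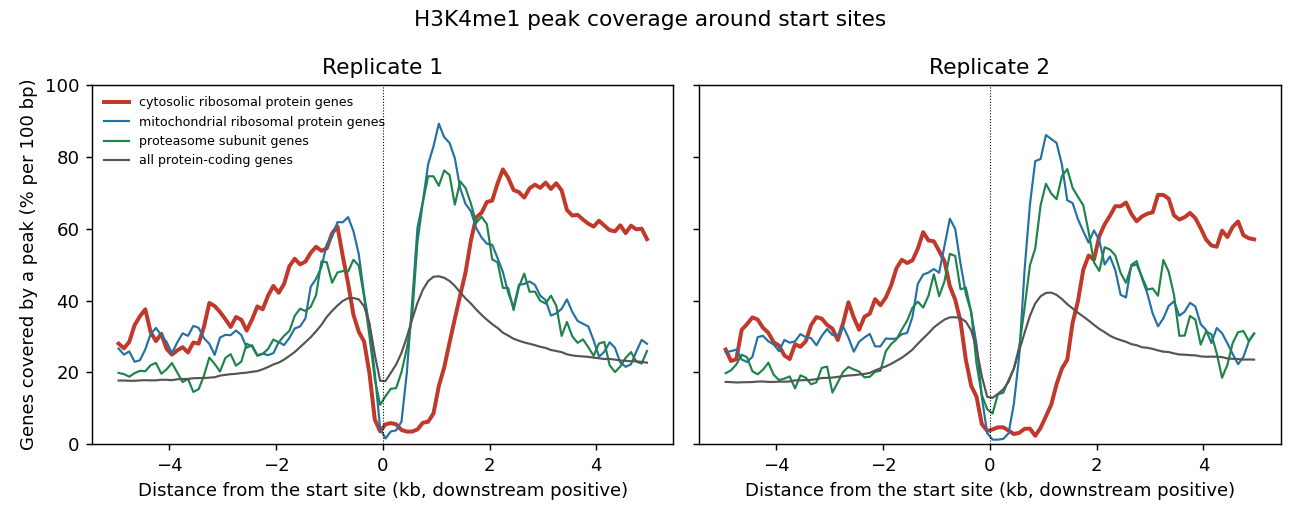
Percentage of genes covered by a peak in each 100 bp from 5 kb upstream to 5 kb downstream of the start site, in replicate 1 (left) and replicate 2 (right), for the 85 cytosolic ribosomal protein genes and 3 other gene sets. In both replicates the cytosolic curve stays low from the start site to about 1 kb downstream, where the other 3 curves are already at or near their highest, and then rises to 76.5% in replicate 1 and 69.4% in replicate 2.

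The plot of coverage by distance shows where the members differed from other genes. In the 100 bp from the start site, 5.54% of members were covered in replicate 1 and 4.11% in replicate 2, against 17.6% and 12.9% of all genes. Upstream, coverage rose to 60.6% in the bin ending 900 bp away in replicate 1 and to 59.0% in the bin ending 1300 bp away in replicate 2. Downstream, it reached 76.5% in the bin ending at 2300 bp in replicate 1 and 69.4% in the bin ending at 3200 bp in replicate 2. All genes reached their upstream maximum of 40.7% at 600 bp and of 35.4% at 700 bp, and their downstream maximum of 46.7% at 1100 bp and of 42.2% at 1200 bp. The shoulder of ribosomal protein genes was thus both higher and farther from the start than that of all genes, in each library. Its height was not particular to the members. Mitochondrial ribosomal protein genes reached 63.2% and 62.8% upstream, and 89.2% and 86.1% downstream. Proteasome subunit genes reached 51.3% and 53.0% upstream, and 76.2% and 76.6% downstream. Their downstream maxima lay nearer the start, at 1100 bp in both libraries for the mitochondrial set, and at 1200 and 1500 bp for proteasome genes.

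The difference near the start was larger downstream than upstream. Between 0.5 and 1 kb downstream, the mean coverage of members was 5.70% in replicate 1 and 3.74% in replicate 2, a mean of 4.72% ± 1.38 (SD, n = 2). The same bin held 38.2% ± 5.09 over all genes, 62.6% ± 4.28 over mitochondrial ribosomal protein genes and 54.4% ± 10.3 over proteasome subunit genes. In this bin 70 of the 85 members had no covered base in replicate 1 and 79 had none in replicate 2, against 41.2% and 46.4% of all genes. From 1 to 2 kb downstream the order depended on the library, with 44.2% over members and 41.3% over all genes in replicate 1, and 30.6% and 38.3% in replicate 2. Between 2 and 5 kb downstream the order was the opposite, with 64.1% ± 2.71 over members and 26.1% ± 0.0251 over all genes. Mitochondrial ribosomal protein genes had 36.6% ± 1.43 there and proteasome genes 36.0% ± 3.49. Only 3 members in replicate 1 and 4 in replicate 2 had no covered base between 2 and 5 kb downstream, against 44.4% and 45.1% of all genes.

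From 5 kb outward downstream, and from 0.5 kb outward upstream, the members had more coverage than all genes, and in the first 0.5 kb upstream they had less. Between 5 and 10 kb downstream the members averaged 41.2% ± 1.23 and all genes 21.2% ± 0.440. Between 10 and 20 kb downstream these values were 33.0% ± 1.08 and 18.5% ± 0.256. Upstream, the members averaged 15.2% ± 3.94 in the first 0.5 kb and 47.6% ± 4.15 from 0.5 to 1 kb, against 28.0% ± 4.30 and 37.1% ± 3.23 over all genes. From 1 to 2 kb upstream they averaged 51.0% ± 0.573 against 27.3% ± 1.29, and from 10 to 20 kb 29.7% ± 0.221 against 16.6% ± 0.239. The difference from all genes in each of these 6 bins was larger than the SD of either set over the replicates.

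The distance from the start site to the first replicated peak gives the same pattern gene by gene. Downstream, its median over the 83 members with such a peak within 20 kb was 1468 bp, with quartiles of 1201.5 and 1693 bp. Measured to the peaks of each library, the median was 1444 bp in replicate 1 and 1567 bp in replicate 2. All genes had a median of 520 bp, mitochondrial ribosomal protein genes 564 bp and proteasome genes 588 bp. The first downstream peak lay 1000 bp or more away at 72 members, against 16.8% of all genes, and 1000 to 1999 bp away at 58 members, against 8.48% of all genes. Among genes flanked within 2 kb on both sides, the downstream medians were 1418 bp over members and 581 bp over all genes. In the separate libraries, 66 members had the first peak at least 1000 bp away in both, against 14% of all genes. Upstream the median distance was 622 bp against 274 bp over all genes. A free start base with a peak on each side within 20 kb was found at 79 members. The downstream distance was the longer at 69 of them, or 87.3%, against 65.6% of the 12212 protein-coding genes of this kind.

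**Figure D2:**
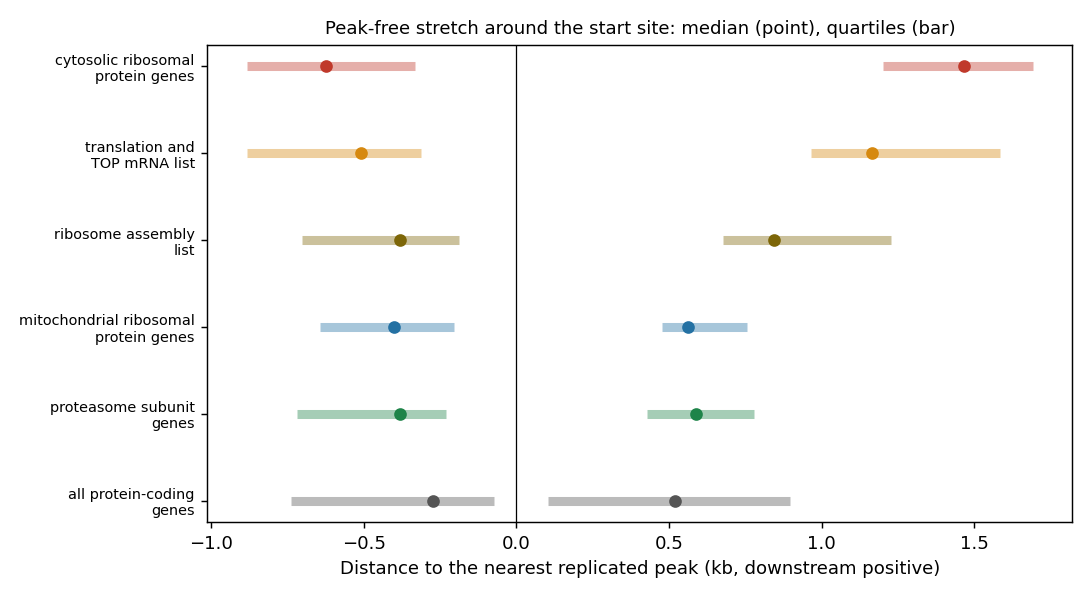
Distance in kb from the start site to the nearest replicated peak, upstream (negative) and downstream (positive), with the median as a point and the quartiles as a bar, for 6 gene sets. The downstream median of the cytosolic ribosomal protein genes, at 1468 bp, is the farthest from 0 of the 6, followed by the translation and TOP list at 1164.5 bp.

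The distance was alike in both subunits, with a downstream median of 1487 bp over the large subunit and 1473 bp over the small subunit. It was also alike for the 65 members placed by a start in the promoter table, 1478 bp, and for the 20 placed by the end of their gene record, 1421.5 bp. The members were short, with a median transcribed length of 3139 bp against 16649 bp over all genes, so that the covered stretch 2 to 5 kb downstream often reached past the gene. The 5 kb after the end of the gene had a median coverage of 50.2% in replicate 1 and 50.7% in replicate 2, against 4.16% and 4.04% over all genes. This stretch begins nearer the start site in short genes, so members and all genes are compared at unlike distances from it. At 9 members, Rpl10, Rpl10l, Rpl32l, Rpl36a, Rpl39, Rpl41, Rplp1, Rps12 and Rps23, the first replicated peak downstream began only after the end of the gene record. This rests on the mm10 list. On the deposited mm9 lists, bases inside Rpl39 and Rps12 were covered in both replicates. Bases inside Rpl10l, Rpl36a and Rplp1 were covered there in replicate 1 only, and none inside Rpl10 or Rps23. Over the same lists, exons of 83 members were covered to 59.2% ± 5.75 and introns to 59.1% ± 3.84 (SD, n = 2). Peaks on these lists had median widths of 1800 bp in replicate 1 and 1600 bp in replicate 2. Exons of all annotated transcripts of a gene were joined, so that introns of some transcripts counted as exon. For these reasons the values cannot separate coverage of exons from coverage of introns.

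Reads from members could align to processed copies of these genes elsewhere, so the share of unique sequence was measured on mm9 beside the result. Between 0.5 and 1 kb downstream, 88.4% of sampled 32-base words of the members occurred once in the genome, against 91.5% over all genes. Between 1 and 2 kb these shares were 85.0% and 90.9%, and between 2 and 5 kb 87.8% and 88.6%. Every one of the 83 members found on mm9 had at least 75% unique words over the first 2 kb downstream. The shares were thus lower in the members by a few percentage points, in the bin with few peaks and in the next bin outward, where peaks were common. Their part in the result was not tested.

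The first downstream peak lay under 1000 bp away at 11 members, among them Rpl22, Rpl29, Rpl3l, Rpl36, Rpl24, Rpl7l1, Rplp2, Rps18, Rps21 and Rps27. These names were read off after the values were known. Rplp2 at 983 bp and Rpl24 at 977 bp missed 1000 bp narrowly, and Rpl7l1, Rps18, Rps21 and Rps27 lay between 939 and 700 bp. Rpl36 had its first replicated peak 25 bp downstream, and in replicate 1 its start lay in a peak. On the mm10 lists, no peak lay within 20 kb downstream of Rpl15 or Rpl39l.

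Several of these members have more than 1 annotated start, or a start taken from the gene record. The start of Rpl22, a large-subunit protein that also binds viral RNAs, lay in a peak in both replicates. RefSeq lists a second start for this gene 1290 bp downstream, which was free of peaks for 521 bp upstream and 1196 bp downstream. Rpl29 and Rpl36 are placed by the end of the gene record. At Rpl29 the start base was covered in replicate 1, while in replicate 2 the nearest downstream peak was 12 bp away. The gene records of 5 members begin well upstream of every listed start: the record ends of Rpl18, Rpl19, Rps2, Rps27l and Rpl38 all lay in peaks, while the listed starts 762 to 4707 bp inward were free. With record ends used for all genes, 8 members had the start in a peak in place of 3. The start of Rpl3l lay in a peak at both of its listed positions, 4859 bp apart.

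The stalk proteins, which form the flexible arm that recruits translation factors to the large subunit, held both a very high and a low member. Rplp2 had the highest coverage of all members, 79.8% in replicate 1 and 74.9% in replicate 2, a mean of 77.4% ± 3.50 (SD, n = 2). Rplp0, the base of the stalk, had 68.4% and 66.4%, and Rplp1 had 15.4% and 14.2%. The libraries differed by less than 5 percentage points at each of the 3 genes, and the values of Rplp1 did not come near those of the other two. Upstream of Rplp2, 82.6% ± 0.601 of the 20 kb was covered, and 72.1% ± 6.40 downstream. All 3 kept an uncovered stretch after the start, with the first replicated peak 983 bp downstream at Rplp2, 1623 bp at Rplp0 and 1417 bp at Rplp1. Rplp1, a gene of 1228 bp, had no covered base on mm10 between its start and its end in either replicate. On the mm9 lists, 238 exon and 72 intron bases of Rplp1 were covered in replicate 1 and 0 in replicate 2.

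**Figure D3:**
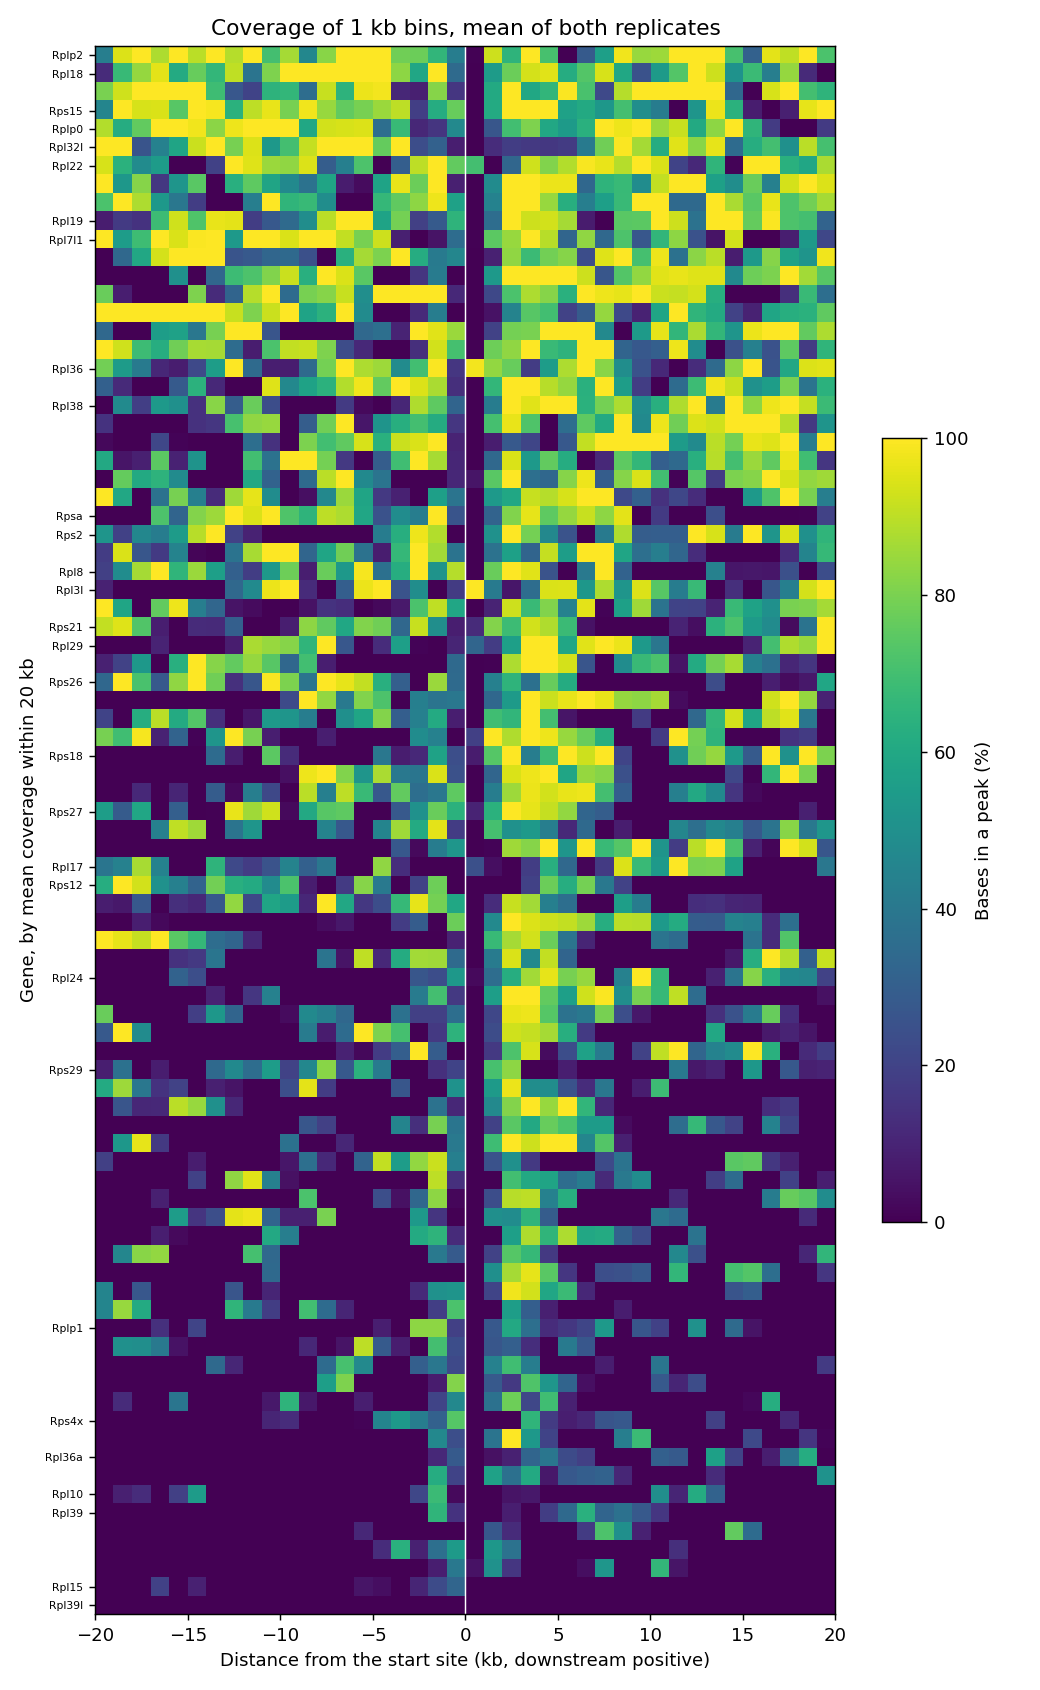
Mean peak coverage over both replicates in 1 kb bins from 20 kb upstream to 20 kb downstream of the start site (x axis), with 1 row for each of the 85 members ordered by coverage within 20 kb and with some rows labelled. The dark column just right of the start site runs through nearly all rows, from Rplp2 at 77.4% to Rpl39l at 0%, and the bins 2 to 5 kb downstream are the most regularly covered.

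The large subunit, which joins amino acids, had a median coverage of 30.2% in replicate 1 and 29.3% in replicate 2 over its 43 genes. Rpl18 was its highest member with 72.7% and 65.5%. Upstream of Rpl18, 82.4% and 72.7% of bases were covered, and downstream 63.0% and 58.4%. The lowest member of the large subunit was Rpl15, with 1.68% and 3.53%, all of it upstream, and with 0% downstream in both replicates. On the mm9 lists, 1200 exon bases of this gene were covered in replicate 1 and 0 in replicate 2. Unique words made up 81.2% of the first 2 kb downstream of Rpl15. The promoter of Rpl15 shares its surroundings with the divergent gene Nkiras1, and its replicated promoter peak lay 537 bp upstream.

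The small subunit, which reads the messenger RNA, had a median of 38.2% and 35.6% over its 31 genes. All 31 had a replicated promoter peak and none had its start in a peak. None had a covered base in the first 0.5 kb downstream, where the mean was 0% in both replicates. The large subunit averaged 7.35% and 5.65% there, but 39 of its 43 genes in replicate 1 and 40 in replicate 2 had none. Its covered bases lay at Rpl22, Rpl29 and Rpl36 in both libraries, and at Rpl17 in replicate 1. All of these except Rpl22 are placed by the end of the gene record. Rps15 was the highest member of the small subunit with 70.9% and 65.4%. Upstream, 80.1% and 80.6% of its bases were covered, and downstream 61.8% and 50.3%. Rpsa, a small-subunit protein also known as a laminin receptor, had 46.0% and 48.1%, with more upstream (59.1% ± 3.80) than downstream (35.0% ± 0.785). The medians of the subunits, 29.7% ± 0.612 for the large and 37.5% ± 1.86 for the small, differed by more than the SD over replicates, but the genes of both spread over most of the range.

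**Figure D4:**
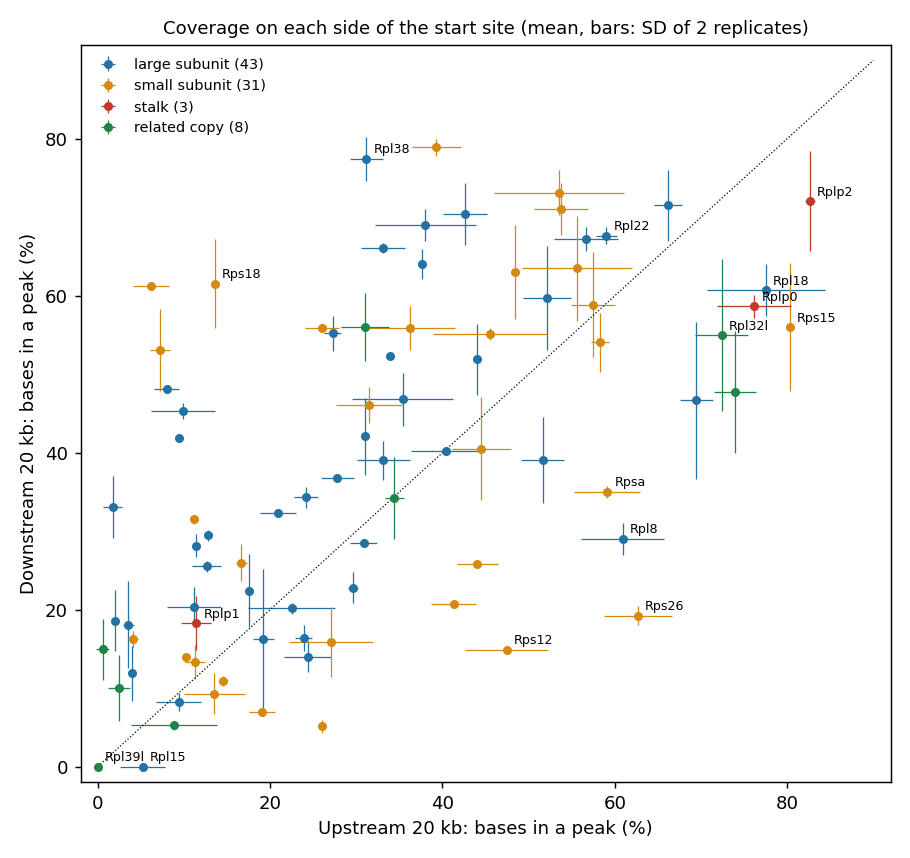
Coverage of the 20 kb downstream (y axis) against the 20 kb upstream (x axis) for each member, as percentages of bases in a peak. Points are means, bars are the SD of the 2 replicates, colours are the roles, and the dotted line marks equal coverage. Rps18 and Rpl38 lie far above the line, and Rps26, Rps12 and Rpl8 far below it.

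Both sides were covered unequally at single members, in either direction. Downstream coverage was higher than upstream in both replicates at 49 members, against 44.8% of all genes, and upstream coverage was higher in both at 28, against 29.3% of all genes. The remaining 8 were mixed or equal. The median of the difference, downstream minus upstream, was 9.63 percentage points in replicate 1 and 4.42 in replicate 2, against 0.143 points over all genes. The median of the members' means, 7.88 points, lay between the 5.49 of mitochondrial ribosomal protein genes and the 8.03 of proteasome subunit genes. The ribosome assembly and translation lists described below had 10.0 and 22.6 points. Downstream was the higher side in both replicates at 57.6% of members, 56.4% of mitochondrial ribosomal protein genes and 64% of proteasome genes. This lean downstream was thus not particular to the members. Among the members with far more coverage downstream, Rps18 had 13.4% and 13.7% upstream and 65.6% and 57.6% downstream, and Rpl38 had 32.5% and 29.8% upstream and 79.5% and 75.5% downstream. At both genes the values of the 2 sides did not overlap between libraries.

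The opposite order was strongest at Rps26, with 65.5% and 59.9% upstream and 18.3% and 20.1% downstream, a difference of -43.5 points ± 5.14. Rps12 had 44.1% and 50.9% upstream and 14.99% and 14.81% downstream. Rpl8 had 57.5% and 64.3% upstream and 30.5% and 27.6% downstream. Even at these genes the order near the start was that of the others: the first replicated peak lay 466 bp upstream and 1394 bp downstream of Rps26, and 107 bp upstream and 1217 bp downstream of Rpl8.

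Neighbouring genes lay close to most members, so that part of the coverage belongs to windows shared with other promoters. Another protein-coding start site lay within 20 kb of 63 members, 74.1%, against 44.9% of all genes, and a divergent one within 1 kb of 14 members, 16.5%, against 7.64%. These shares were 75.6% and 33.3% for mitochondrial ribosomal protein genes, and 58% and 16% for proteasome subunit genes. The 63 members with another start site within 20 kb had a median coverage of 41.1% ± 1.29, and the 22 without had 17.4% ± 0.575. Over all genes the same split gave 22.7% ± 0.479 and 8.59% ± 0.310. Members thus had the higher median within either class. The distance to the first downstream peak did not follow the split, with medians of 1408 and 1514 bp among the members flanked within 2 kb on both sides. Windows overlapped, among others, between Rps2 and Rpl3l, whose starts are 7763 bp apart, and between Rps29 and Rpl36al, 24881 bp apart, and the values of these pairs are not independent.

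The 4 members on chromosome X had low coverage. Rps4x had 13.6% in replicate 1 and 9.22% in replicate 2, Rpl36a 11.5% and 9.03%, Rpl10 10.1% and 7.49%, and Rpl39 9.11% and 6.76%. All 4 lay below the all-gene median in both replicates, and replicate 1 was the higher at each. Members on autosomes had a median of 36.1% ± 0.203. All 954 genes on X had a median of 0.675% ± 0.311, and all autosomal genes 15.2% ± 0.219, so that the 4 members lay above the median of their chromosome and below the median of the autosomal members. The range over genes on X reached 46.8%, above each of the 4. The line is male, and the copy number of X cannot be told apart from position on X here. Each of the 4 had a replicated promoter peak, upstream only. The first replicated peak downstream lay 3238 bp away at Rps4x, where the libraries gave 3275 and 3073 bp. At the other 3 this distance rested on the library. It was 10113 bp at Rpl10, but 10112 bp in replicate 1 and 2896 bp in replicate 2. At Rpl39 it was 4767 bp, with 2292 and 4844 bp, and at Rpl36a 2954 bp, with 1907 and 3044 bp.

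The 8 related copies ran from 0% to 63.7% of coverage within 20 kb, and the 77 other members from 2.60% to 77.4%. Several are known as variants with a restricted expression, Rpl3l in striated muscle and Rpl10l and Rpl39l in the testis. Rpl39l had no covered base within 20 kb in either replicate, as 15.6% of all genes do, and 77.6% of the words in its window were unique. Rpl10l, a copy without introns of the X-linked Rpl10, had 9.39% and 6.10% with no replicated peak within 2 kb. Each library did have a peak there, 1454 bp downstream in replicate 1 and 1136 bp in replicate 2. Rpl22l1, with 8.12% and 4.28%, stood far below its partner Rpl22, with 64.1% and 62.5%. Rps27l, a gene known to respond to p53, had 8.99% and 5.09% against 35.7% and 34.2% at Rps27. Rpl3l had 46.0% and 41.0% against 60.9% and 55.2% at Rpl3.

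**Figure D5:**
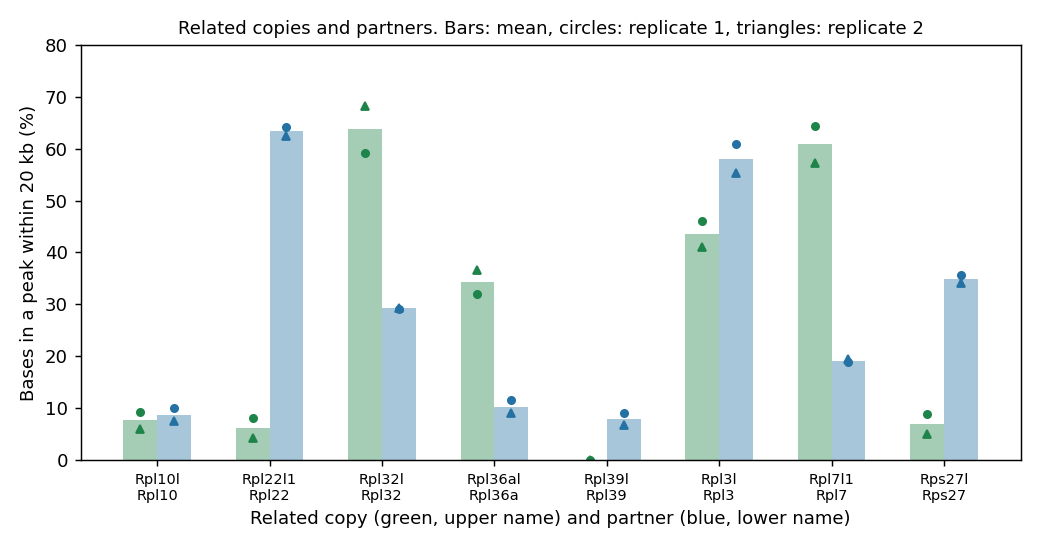
Coverage within 20 kb of the start site for the 8 related copies (green) and the member with the same symbol less its ending (blue), as percentages of bases in a peak. Bars are means, circles replicate 1 and triangles replicate 2. Rpl22l1 and Rps27l lie far below their partners, and Rpl32l, Rpl7l1 and Rpl36al above theirs.

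The other 3 copies lay above their partners. Rpl32l had 59.2% and 68.2% against 29.2% and 29.3% at Rpl32. It was annotated as a gene of 592 bp inside Map7, and its start site was followed by 2341 bp without a replicated peak, with the first peak at 1635 bp in replicate 1 and 2308 bp in replicate 2. Rpl7l1 had 64.4% and 57.2% against 18.9% and 19.4% at Rpl7. Rpl36al had 32.1% and 36.6% against 11.5% and 9.03% at Rpl36a, which is on X. In all, 5 of the 8 copies lay below their partner in both replicates and 3 above. Only Rpl10l and Rpl10 had values that overlapped between libraries. Rpl32l, Rpl7l1 and Rpl18 were also the members whose replicates differed most, by -8.99, 7.22 and 7.18 points, replicate 1 minus replicate 2. At the other 82 members the SD over replicates was under 5 percentage points.

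The third gene without a replicated promoter peak was Rpl17, on chromosome 18, a large-subunit protein at the exit of the peptide tunnel. It had 33.0% and 31.6% coverage within 20 kb, but its nearest replicated peaks lay 3868 bp upstream and 3487 bp downstream. Single-library peaks lay closer, 29 bp downstream in replicate 1 and 636 bp in replicate 2. Like Rpl29 and Rpl36, Rpl17 is placed by the end of its gene record.

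Genes that work with the ribosomal proteins were measured in the same way, from 2 lists. Of 38 genes for ribosomal RNA synthesis and ribosome assembly, 31 lay above the all-gene median, and the list's median was 33.4% ± 0.677. The highest were Ubtf, a factor of RNA polymerase I, with 71.6% ± 0.166, Nhp2, a protein of the box H/ACA particles, with 69.7% ± 1.85, and Nolc1, a nucleolar chaperone, with 64.9% ± 3.61. The lowest were Efl1, a GTPase that releases Eif6 from the new large subunit, with 3.91% ± 0.272, Taf1b, a part of the polymerase I selectivity complex, with 4.42% ± 0.661, and Wdr12, an assembly factor of the large subunit, with 6.63% ± 0.0636. All 38 had a replicated promoter peak. Their median distance to the first downstream peak was 844 bp, and 16 of them reached 1000 bp.

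Of 18 translation factors and other genes with TOP messenger RNAs, 17 lay above the all-gene median, and the list's median was 45.9% ± 2.35. Among the highest, Eef2, the elongation factor of translocation, had 64.6% ± 1.95, and Eef1d, an exchange factor subunit of elongation, had 63.9% ± 1.31. Eif3f, an initiation factor subunit, was the only gene of the list below the all-gene median, with 11.3% ± 2.62. The median distance to the first downstream peak was 1164.5 bp on this list, and 13 of the 18 genes reached 1000 bp, against the 16.8% of all genes given above. Of 78 mitochondrial ribosomal protein genes 6 reached it, and of 50 proteasome subunit genes 6. The differences between these lists were not tested, since genes are not replicates.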

How the data were processed

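H3K4me1 ChIP-seq peaks of 2 biological replicates of E14TG2a.4 cells were analysed. The authors deposited 4 lists of peak intervals on mm10 (1 of each library, 1 of both pooled and 1 of peaks kept as replicated) and 3 on mm9. Each interval carries a signal value and, on mm10, a −log10 q value, both written by the authors. Signal values are not reported here, and q served only in an alternative. Which aligner and peak caller were used is not given in the sources used here. Read depth is unknown, since the files hold no read counts. The replicate lists hold 313453 and 325226 peaks covering 210615870 and 214601915 bases.

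Start sites were the most upstream start in the RefSeq promoter table (GRCm38.p6, 65 members), otherwise the 5′ end of the RefSeq gene record (20 members). Strands came from that table, otherwise from GENCODE. Of 21887 protein-coding genes, 352 without a strand were left out. Coverage was computed per gene and replicate with Python 3.11.15, numpy 2.4.6 and pandas 2.3.3, and was checked against base-by-base counting on simulated intervals. Figures used matplotlib 3.10.9. Unique sequence was counted as 32-base words on mm9.

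The members and lists were chosen with earlier results of these data known. Genes named are the 6 members with the highest coverage, those without a promoter peak or with the start in a peak, the 3 extremes of the difference between sides in each direction, the 3 with the largest difference between replicates, members on X, related copies with their partners, Rpsa and the stalk genes, and the 3 highest and up to 3 lowest genes of each list. Others named were chosen after their values were seen. A few genes picked by these rules are not reported here. The match of copies to partners rests on symbols, since protein sequences were not used here.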

Additional observations from a re-analysis of the deposited data

How the results depend on the processing

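The order of members and all genes in median coverage over whole windows, peak classes and distances was kept under every alternative tried except 1. Within 1 kb, 7.06% of members and 37.6% of all genes were flanked on both sides, the opposite of the order within 2 kb. Distance bins were compared only by library, and from 1 to 2 kb downstream their order depended on the library. Median coverage was 50.8% on the mm9 lists, 36.1% for autosomal members, 34.9% without related copies, 40.8% on the pooled list, 41.4% within 5 kb and 26.4% within 50 kb. The upstream median was 43.8% on mm9, 35.9% pooled, 35.2% within 5 kb, 24.7% within 50 kb and 30.1% with starts at record ends, a choice made after seeing the data. It ranged from 29.8% to 30.0% without replicate 1 or 2. The downstream median was 56.7% on mm9, 45.1% pooled, 52.6% within 5 kb and 31.7% within 50 kb. The difference between sides was 12.0 points within 5 kb and 2.61 within 50 kb. Members flanked on both sides numbered 6 within 1 kb, and those with the start in a peak 6 on mm9 and 8 with record ends. The downstream distance, whose alternatives were also added after seeing the data, was 1112.5 bp on mm9 and ranged from 1444 to 1567 bp with either replicate left out. The upstream distance was 301 bp on mm9, 608 bp on autosomes, 626 bp without copies, 593 bp pooled and 601 bp with record ends, and 636 to 636.5 bp with either replicate left out. The cause of these shifts was not tested, apart from window size and the members left out, which are set by construction. No paired analysis was possible because the series has a single group. The mm9 alternative also placed starts at the 5′ ends of GENCODE gene records. It took peak classes and distances from the pooled mm9 list, where the main result used the replicated list. Its values thus differ from the main ones in starts and list as well as in build. The mm9 intervals come in steps of 200 bp and can resolve no shorter distance. With 2 libraries, no read depth and no control signal, an uncovered base shows that no peak was called there, not that the mark is absent.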
